A study of Arabidopsis thaliana with 4 samples.

Results

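HVA22D (AT4G24960) and HVA22E (AT5G50720) are the 2 Arabidopsis genes described here, out of 22746 gene probe sets on each array. HVA22D is represented by the probe set 254085_at and HVA22E by 248466_at. They were selected on the signals of all 4 arrays, as genes known from ABA and stress responses that differed between the genotypes, so that difference is a description and carries no test. The platform annotation used here does not list either probe set, and the pairing of probe set and gene was supplied with the choice of members.

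Total RNA of whole plants of Arabidopsis thaliana was measured on Affymetrix ATH1 arrays, 1 array per sample, with 2 samples of 35S::CBF2 plants and 2 of wild type plants. The 35S::CBF2 plants express CBF2, an AP2/ERF transcription factor of the cold response, from the 35S promoter, a viral promoter that is active in most plant tissues. The wild type is Ws-2 (Wassilewskija), and the labels give no accession for the transgenic plants. The protocol of both 35S::CBF2 samples names E2, while the sample titles read E24 and E2, so whether they are 1 transgenic line or 2 is not settled. Both titles also read Rep1, so the 35S::CBF2 replicate numbers used here follow the listed order: the E24 array is replicate 1 and the E2 array replicate 2. All plants were 10 days old, had been stratified for 4 days at 4 °C, and were grown on agar plates at 24 °C in continuous light with no cold treatment. Plates of about 100 plants each were harvested singly, 4 per genotype, and the labels do not say which plates gave which array. The labels do not tie the arrays of a genotype to separate cultures. The p-values therefore rest on the spread of these 4 arrays alone, and that spread may be technical in origin.

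HVA22 was first described in barley as a gene induced by abscisic acid (ABA), the hormone that plants make under drought, salt and cold. The proteins belong to a family that also holds yeast Yop1 and animal DP1/REEP proteins. These are small membrane proteins that sit in the endoplasmic reticulum (ER) and shape its tubules, a task they share with the reticulons. CBF2 is known to bind the C-repeat/dehydration-responsive element in promoters of cold-regulated genes, whereas ABA acts mostly through another promoter element.

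Without any cold treatment, both genes had far higher signals in the plants that express CBF2. HVA22D had signals of 1553 and 1933 on the 35S::CBF2 arrays, against 117 and 129 on the wild type arrays. The groups did not overlap. The geometric mean was 1733 in 35S::CBF2 and 123 in wild type, a 14.1-fold difference (log2 difference 3.82 ± 0.17, n = 2 per group). The SE given here and with every log2 difference below is moderated by limma with the spread of all tested probe sets, not that of HVA22D alone. In wild type the gene was already well above background, at 8.09 and 8.90 times the highest bacterial control signal over all 4 arrays (14.5). The bacterial control probe sets have no target in plant RNA. That highest signal came from 35S::CBF2 replicate 2, and the wild type arrays had highest control signals of 12.6 and 8.87.

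HVA22E had signals of 693 and 766 on the 35S::CBF2 arrays, against 22.1 and 31.8 on the wild type arrays. Again the groups did not overlap. The geometric mean was 729 in 35S::CBF2 and 26.5 in wild type, a 27.5-fold difference (log2 difference 4.78 ± 0.22, moderated SE, n = 2 per group). Its wild type signal was faint, only 1.53 times the highest bacterial control on wild type replicate 1. As background, 17.8% of the 13647 tested probe sets had the 35S::CBF2 signals wholly above the wild type ones. The test was passed by 3.36% in either direction, 2.11% as higher and 1.25% as lower. Nothing is read from these shares for the 2 genes, since this contrast chose them. In whole plants, a change in the number of cells that express a gene and a change of RNA per cell cannot be told apart.

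**Figure D1:**
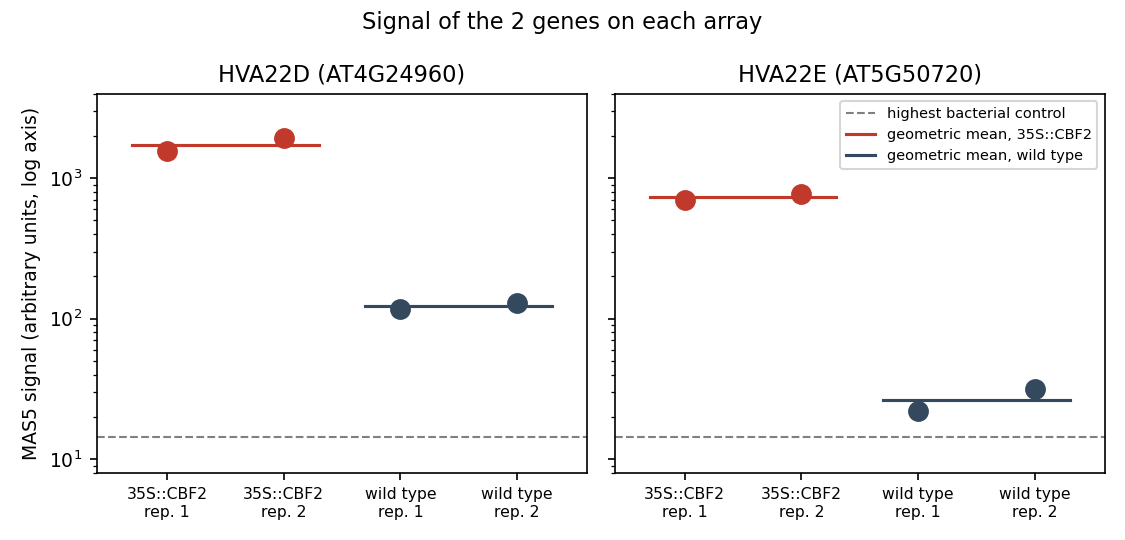
MAS5 signal (arbitrary units, log axis) of HVA22D and HVA22E on each of the 4 arrays, with lines at the geometric mean of each group and a dashed line at the highest bacterial control signal. HVA22D lies at 1553 and 1933 in 35S::CBF2 and at 117 and 129 in wild type, while HVA22E lies at 693 and 766 in 35S::CBF2 and close above the dashed line in wild type.

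The rank of each probe set's signal on an array, which depends on its probe affinity and is read only between arrays, was higher in 35S::CBF2. The HVA22D signal exceeded 98.6% and 99.0% of gene probe sets on the 35S::CBF2 arrays, against 74.6% and 76.8% on the wild type arrays. The HVA22E signal exceeded 96.4% and 96.7% on the 35S::CBF2 arrays, against 36.1% and 44.0% on the wild type arrays. For both genes the ranks did not overlap between the genotypes. These ranks come from the signals on which the genes were selected and add no evidence.

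Every pairing of a 35S::CBF2 array with a wild type array gave a large difference. For HVA22D the folds of the 4 pairings lay between 12.0 and 16.5, and for HVA22E between 21.8 and 34.6. The spread within a group was largest for HVA22E in wild type, where the arrays differed 1.44-fold (SD 0.37 on the log2 scale). Of the 3682 gene probe sets with a wild type signal within 1.5-fold of that of HVA22E, 33.9% differed more between the wild type arrays. The wild type arrays differed 1.101-fold for HVA22D (SD 0.10), and 65.0% of the 3973 probe sets of like signal differed more. On the 35S::CBF2 arrays HVA22D differed 1.25-fold (SD 0.22), a ratio exceeded by 18.6% of 317 probe sets of like signal. HVA22E differed 1.105-fold there (SD 0.10), a ratio exceeded by 55.9% of 782 such probe sets.

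The array with the higher 35S::CBF2 signal for both genes, replicate 2, was also the array with bright hybridisation spike-ins, 1.91 times the wild type mean, against 0.664 times on 35S::CBF2 replicate 1. Without replicate 2 the log2 difference was 3.66 for HVA22D and 4.71 for HVA22E, and without replicate 1 it was 3.98 and 4.85. The median signal of gene probe sets lay between 39.6 and 42.4 on the 4 arrays. The 3′ to 5′ signal ratio of the actin controls, a sign of RNA integrity, was 1.28 and 1.36 on the 35S::CBF2 arrays and 1.25 and 1.28 on the wild type arrays. That of the GAPDH controls was 0.767 and 0.739 on the 35S::CBF2 arrays and 0.819 and 0.795 on the wild type arrays, without overlap, and its part in the results was not tested.

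The relative difference was larger for HVA22E and the absolute one larger for HVA22D. The log2 difference of HVA22E exceeded that of HVA22D by 0.96, or 1.95-fold, and by 0.68 to 1.24 over the 4 pairings of arrays. With an offset of 11.6 added to every signal before the log, which shrinks the folds of faint transcripts, this excess was 0.58 (log2 differences of 4.27 for HVA22E and 3.70 for HVA22D). On the linear scale, HVA22D averaged 1743 ± 269 in 35S::CBF2 and 123 ± 8.34 in wild type, while HVA22E averaged 729.6 ± 51.4 in 35S::CBF2 and 27.0 ± 6.86 in wild type (SD, n = 2 each). The gain in signal was 1620 for HVA22D and 703 for HVA22E. Signals of different probe sets have different probe affinities, so these gains do not rank the transcripts by abundance.

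Few transcripts differed as much, but the 2 genes were chosen on this contrast. Their place in it is a description and no evidence. Among all tested probe sets, 9 had a larger log2 difference than HVA22E and 19 had a larger one than HVA22D, and a difference of at least 8-fold upward was reached by 30, or 0.22%. Of the 3973 gene probe sets that started from a like wild type signal as HVA22D, 2 had a larger difference. Of the 3682 that started from a like signal as HVA22E, 1 had a larger difference. The median log2 difference over all tested probe sets was -0.04, and 0.62 was the 95th percentile.

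**Figure D2:**
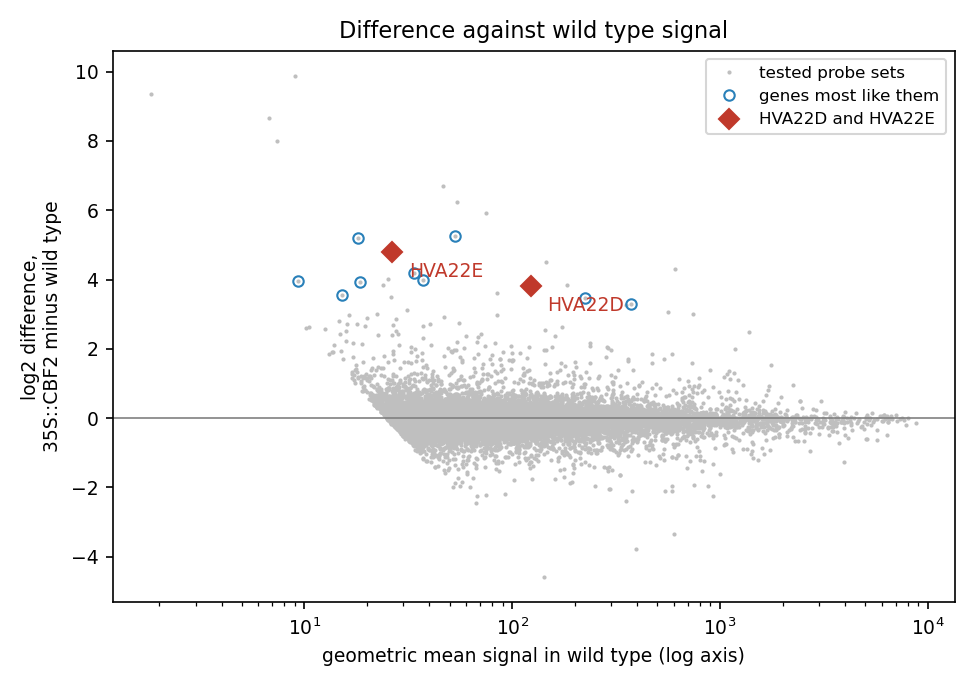
Log2 difference (35S::CBF2 minus wild type) of each tested probe set against its geometric mean signal in wild type (log axis). HVA22D (3.82 at a signal of 123) and HVA22E (4.78 at 26.5) lie far above the grey cloud. Open circles mark the named genes whose signals over the 4 arrays are most like theirs.

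The rest of the HVA22 family could be seen only in part. Of the 11 family genes, HVA22C and AT5G42560 were the only others with a named probe set. Neither passed the test, which is near the 3.36% of all tested probe sets that did, so nothing is read from this for the family. HVA22C had signals of 210 and 249 in 35S::CBF2, against 230 and 165 in wild type (log2 difference 0.23 ± 0.21, adjusted p = 0.757). The groups overlapped, and over the 12 alternatives the log2 difference lay between -0.01 and 0.47. AT5G42560, a family member by sequence, had signals of 102 and 110 in 35S::CBF2, against 139.6 and 140.2 in wild type. Here the 35S::CBF2 signals lay wholly below the wild type ones, as in 23.9% of all tested probe sets, and the log2 difference was -0.41 ± 0.19 (adjusted p = 0.414). HVA22A, HVA22B and HVA22F to HVA22K, other than AT5G42560, were not analysed here. Both probe set names of HVA22D and HVA22E end in plain _at, with none of the array's marks for probe sets shared between genes. HVA22D has 3 RefSeq transcripts and HVA22E has 1, and the single probe set of HVA22D does not separate its transcripts.

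The reticulons, the other family of ER-shaping proteins, were largely unmeasured. Of 9 genes listed, 3 could be named on the array and 2 were bright enough to test, and 0 of these passed, where 3.36% of all tested probe sets did (limma; 0 also at an unadjusted p under 0.05). AT2G46170 had signals of 205 and 234 in 35S::CBF2, against 237 and 275 in wild type (log2 difference -0.22 ± 0.18). AT3G10260 had 178 and 121 in 35S::CBF2, against 168 and 126 in wild type (log2 difference 0.01 ± 0.24). AT3G18260 had signals between 9.55 and 22.5 on the 4 arrays and was too faint to be tested.

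ATG8 proteins coat the membranes of autophagosomes and bind receptors through which parts of the ER are taken up for breakdown. All 9 listed ATG8 genes were named on the array and tested. Of these 0 passed, which is near the 3.36% of all tested probe sets that did (limma, with 0 at an unadjusted p under 0.05). Their log2 differences ran from -0.67 to 0.29 with a median of 0.12, against a median of -0.04 over all tested probe sets. ATG8E had signals of 92.3 and 104 in 35S::CBF2, against 227 and 107 in wild type (log2 difference -0.67 ± 0.31, adjusted p = 0.389). That difference rested on wild type replicate 1: without wild type replicate 2 it was -1.21 and passed (adjusted p = 0.0194), and without wild type replicate 1 it was -0.13, with adjusted p from 0.0194 to 0.950 over the alternatives. ATG8H had a like spread between the wild type arrays, with 64.5 and 99.4 in 35S::CBF2, against 158 and 64.8 in wild type (log2 difference -0.34 ± 0.37). In all, 7 of the 9 ATG8 genes were brighter on wild type replicate 1 than on wild type replicate 2, and 9 of 9 were brighter on 35S::CBF2 replicate 2 than on 35S::CBF2 replicate 1. HVA22D and HVA22E were also brighter on 35S::CBF2 replicate 2, but not on wild type replicate 1. The same shares over all tested probe sets were not counted, so nothing particular to the ATG8 genes is read from these counts.

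**Figure D3:**
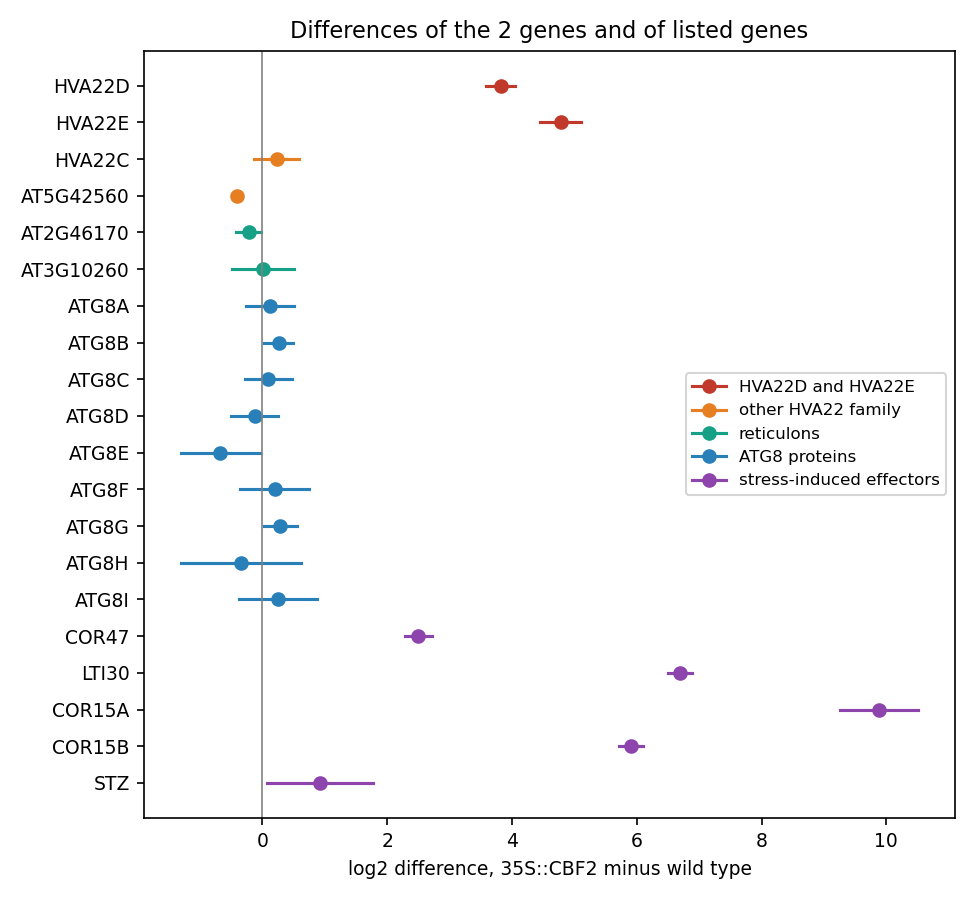
Log2 difference (35S::CBF2 minus wild type) of HVA22D, HVA22E and the tested genes of 4 lists; points are the difference of the group means and lines span the 4 pairings of arrays. HVA22D and HVA22E, at 3.82 and 4.78, lie among the cold-induced effectors COR47, COR15B and LTI30, while the other HVA22 genes, reticulons and ATG8 genes lie between -0.67 and 0.29.

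Effector genes that ABA, cold and drought are known to induce were mostly higher too. Of 18 listed, 5 could be named and tested and 4 rose, against a background of 2.11%; these genes were known to respond on these arrays, so the count is no independent evidence. The differences of HVA22D and HVA22E lay above that of COR47 and below those of the other 3 that rose. COR47, a dehydrin gene, rose with a log2 difference of 2.50 ± 0.15 (adjusted p = 3.49e-06). COR15B, which encodes a chloroplast protein of the cold response, rose with 5.91 ± 0.17, and LTI30, another dehydrin gene, with 6.70 ± 0.16 (adjusted p = 6.67e-09 for LTI30). COR15A, the close relative of COR15B, had wild type signals below the bacterial controls and was at least 586-fold higher. STZ, a zinc finger regulator, had signals of 41.2 and 79.5 in 35S::CBF2, against 23.3 and 39.0 in wild type, and did not pass (adjusted p = 0.310). Its unadjusted p was 0.0336, and all 5 tested effectors had an unadjusted p under 0.05 (limma). The 33 listed genes of ABA synthesis, breakdown, perception and signalling had no named probe set and were not analysed here, so the state of the ABA pathway in these plants was not tested.

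A wider look at genes named as dehydrins, late embryogenesis abundant (LEA), drought-induced or cold-regulated was added after seeing the data. It gave 14 genes, of which 10 were tested and 5 rose, against 2.11% of all tested probe sets. COR47, LTI30, COR15A and COR15B, already given above, are among those that rose, so the count is no independent evidence. COR15A was bright enough to test only through its 35S::CBF2 signals. The only other gene of the list that rose was AT1G54410, an 11 kDa dehydrin gene. It had 4415 and 4396 in 35S::CBF2, against 2307 and 2204 in wild type (log2 difference 0.97 ± 0.13). It passed with an adjusted p of 0.00188, and lost the call without the intensity trend (0.0704), the highest value over its alternatives, of which the lowest was 0.00126. DI21 and DI19, named for drought, missed the threshold, with log2 differences of 0.45 ± 0.22 and 0.35 ± 0.14 (adjusted p = 0.444 and 0.275). COR27, AT2G46140 and AT2G44060 missed it too, with log2 differences of 0.02, -0.25 and 0.45. At an unadjusted p under 0.05 (limma), 7 of the 10 tested genes passed, DI19 and AT2G44060 among them. The LEA genes LEA4-5, AtLEA4-1, LEA (AT2G21490) and LEA18 were too faint to be tested, with signals from 0.684 to 28.6.

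Of the genes next to HVA22D and HVA22E on the chromosome, only AT5G50740 could be tested. It did not pass, which is near the 3.36% of all tested probe sets that did, so nothing is read from it. AT4G24950, on one side of HVA22D, had signals of 1.05 and 3.65 in 35S::CBF2 and of 0.992 and 1.61 in wild type. All lay below the highest bacterial control (14.5). AT4G24970, on the other side, had 21.7 and 17.1 in 35S::CBF2, against 22.9 and 21.0 in wild type, too faint to be tested. For HVA22E the next gene after it, AT5G50740, has 2 probe sets that differed in sign. One had 111 and 97.5 in 35S::CBF2, against 97.6 and 142 in wild type (log2 difference -0.18 ± 0.23). The other had 54.4 and 51.6 in 35S::CBF2, against 34.2 and 41.9 in wild type (0.49 ± 0.27). There the 35S::CBF2 signals lay wholly above the wild type ones, as in 17.8% of all tested probe sets. Neither probe set passed (limma, adjusted p = 0.857 and 0.525). The nearest annotated gene before HVA22E, MIR405b, has no named probe set.

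The transcripts most like the 2 genes were sought by the root mean square distance between log2 signals over the 4 arrays, each gene centred on its wild type mean. This measure follows mainly the size of the difference between the groups and is a description over 4 arrays. Only the 7259 tested probe sets with exactly 1 named gene were searched, out of 13647 tested. Closer transcripts may lie among the rest. The nearest to HVA22D was AT1G48100, of the polygalacturonase family of wall enzymes, at a distance of 0.15, with 567 and 614 in 35S::CBF2, against 37.2 and 36.9 in wild type. Next came AT4G30650, of a family of small membrane proteins that respond to low temperature and salt, at 0.35, with 2189 and 2838 in 35S::CBF2, against 168 and 301 in wild type. AT2G16990, AT2G23120 and AT1G68500 followed at 0.36, 0.41 and 0.45. Wild type signals were 19.1 and 12.1 for AT2G16990 and 12.4 and 27.6 for AT1G68500. The lower signal of each lay below the highest bacterial control (14.5), so the distances of these genes are not well measured.

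The nearest to HVA22E was AT1G51090, at a distance of 0.39, with 688 and 638 in 35S::CBF2, against 19.2 and 17.2 in wild type. AT2G43620, of the chitinase family, followed at 0.55, AT1G48100 at 0.59, the sugar transporter gene SWEET10 at 0.66, and AT3G17130, an inhibitor-family gene for invertase or pectin methylesterase, at 0.67. Both wild type signals of SWEET10, 6.42 and 13.6, lay below the highest bacterial control (14.5), so its distance is not well measured. The wild type signals of AT1G51090 lay close above that control, which limits its distance too. AT1G48100 was the gene found for both. The distance between HVA22D and HVA22E themselves was 0.70, and 9 named genes lay closer to HVA22D and 5 closer to HVA22E.

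**Figure D4:**
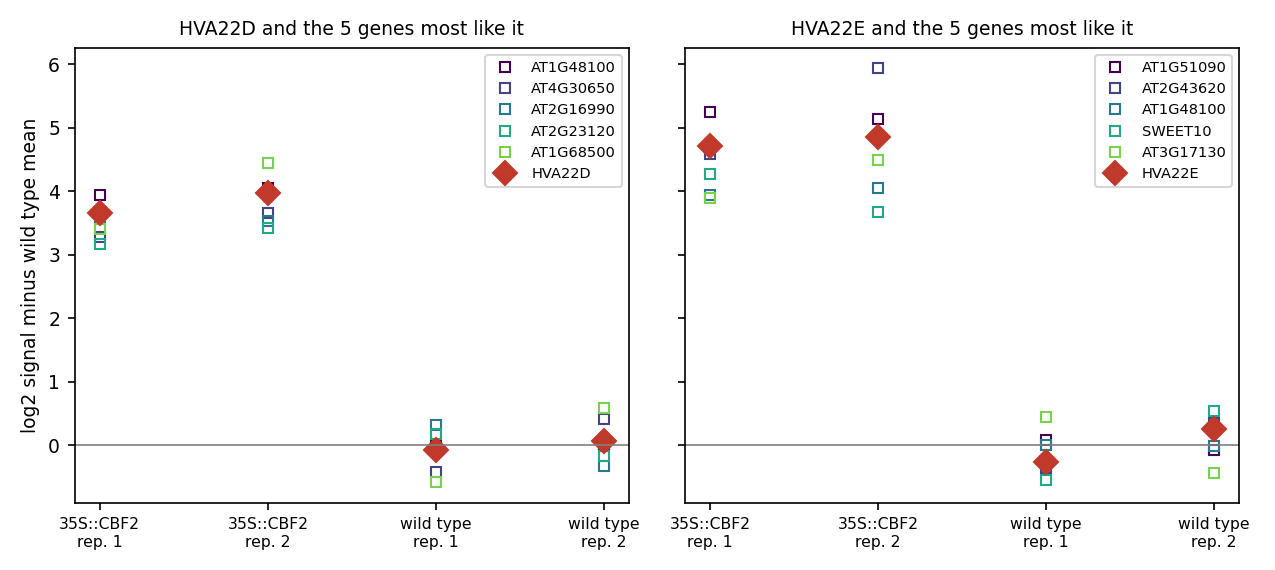
Log2 signal minus the wild type mean on each array for HVA22D (left) and HVA22E (right), as diamonds, with the 5 named genes most like each as open squares. The squares lie at distances of 0.15 to 0.45 from HVA22D and of 0.39 to 0.67 from HVA22E, and these ranges overlap.

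Tissue markers did not separate the groups. The 3 leaf markers measured, LHCB4.1, LHCB4.2 and RCA, had summed signals of 17940 and 14288 in 35S::CBF2 and of 17557 and 16251 in wild type. The 3 root markers, PYK10, EXPA7 and EXPA18, had summed signals of 1486 and 2133 in 35S::CBF2 and of 1948 and 1555 in wild type. The root sums were mostly PYK10, with 1429 and 2046 in 35S::CBF2 and 1872 and 1473 in wild type. Of the tested members of both lists 0 passed, which is near the 3.36% of all tested probe sets that did (limma, with 0 at an unadjusted p under 0.05). Both sums overlapped between the groups. The 3 reference genes measured had log2 differences between -0.02 and 0.14. The 5 seed and 3 flower markers listed had no named probe set and were not analysed here.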

How the data were processed

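The authors deposited linear signal intensity, 1 value per probe set and array, computed with MAS5 (version not given in the sources) per the submitters' processing notes. The 2%-trimmed mean was 100.0 on every array, so no further scaling was applied. Of 22810 probe sets, 64 controls were left out. Names came from a 2016 platform annotation (13513 probe sets with 1 gene, 13436 matched to RefSeq's TAIR10.1 gene table). Signals were taken to log2, and the 13647 probe sets above the 40th percentile of mean log2 signal (geometric mean above 24.8) went into limma 3.58.1 under R 4.3.3 (lmFit, eBayes with trend, two-sided, Benjamini-Hochberg over all tested, threshold 0.05). The procedure was tested on simulated data with independent noise on each array. That cannot show how it performs if the arrays of a genotype are technical repeats. The number of arrays limits the precision.

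The members and the 11 gene lists were chosen with earlier results of these data known. Besides the 2 members, genes named are the HVA22 family, up to 4 of the smallest p per list, measured neighbours, and the 5 most like each member; AT1G54410, DI19, DI21, the faint LEA genes, COR27, AT2G46140, AT2G44060, STZ, ATG8H and the reticulon AT3G18260 were named after their values were seen. For a gene with several probe sets the brightest was counted. The 12 alternatives are other normalizations, filters, an offset, other variance models, the title letter as a block, and each array left out. No sequence of these genes was in the sources used here, so the search for promoter motifs and the comparison of proteins were not run.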

Additional observations from a re-analysis of the deposited data

Results flagged for a closer look

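Spike-in controls added at hybridisation, which enter no comparison here, were bright on 35S::CBF2 replicate 2. Their geometric mean over 9 probe sets was 1.91 times that of wild type, and the wild type arrays singly had 0.986 and 1.01. They stood out as a signal in data that the comparisons leave aside, above its level in wild type. HVA22D and HVA22E were 1.25 and 1.105 times as bright on that array as on 35S::CBF2 replicate 1, and the part of the spike-ins in this was not tested.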

How the results depend on the processing

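The log2 differences of HVA22D and HVA22E kept their direction under the 7 alternatives that can move them. Leaving out 1 array gave 3.66 to 3.98 for HVA22D and 4.52 to 5.04 for HVA22E, and the offset before the log, which by construction shrinks faint signals, gave 4.27 for HVA22E. Leaving out 1 array also moved the counts over the whole table: 270 to 605 changed probe sets (458 on all arrays), 178 to 334 higher (288) and 92 to 271 lower (170). Without the intensity trend there were 205 changed, 157 higher and 48 lower. The lower count was 96 with no filter and 281 when the title letter was a block. For these counts the cause was not tested. Of the comparisons of other named genes, 165 kept a call, 1 lost it (AT1G54410) and 1 gained it (ATG8E). No paired analysis by replicate number was possible because the groups share only 1 number in the labels. The title letter, whose meaning is not given, was used to pair the arrays instead, as a block (661 changed probe sets), although arrays of 1 letter had deviations correlated at only 0.07. The alternative window for promoter motifs was not run. Faint signals limit HVA22E in wild type.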
